A study of Homo sapiens with 4 samples.

Results

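Mitochondria keep a small genome whose genes are read by a dedicated set of proteins, and 10 of these, all encoded in the nucleus and imported, are described here in MM.1S cells treated with JG342. The genes are POLRMT, TFAM, TFB2M, LRPPRC, MTIF2, MTIF3, TUFM, TSFM, GFM1 and GFM2. They were taken by symbol from the deposited table, and all 10 were found among its 16057 genes. MM.1S is an established human multiple myeloma line, and JG342 is an allosteric inhibitor of the chaperone HSP70. The treated cultures received 350 nM JG342 and the controls the solvent DMSO, each for 26 h, with 2 libraries per treatment that the submitters describe as biological duplicates. A single cell line, drug dose and time were sampled, so nothing here speaks of other myelomas or of earlier times.

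Transcription of the mitochondrial genome is carried out by POLRMT, a polymerase related to those of bacteriophages, which needs TFAM to bend the promoter DNA and TFB2M to open it. LRPPRC binds the finished messenger RNAs and keeps them stable. Translation then uses factors that resemble bacterial ones: MTIF2 and MTIF3 start it, TUFM, TSFM and GFM1 drive elongation, and GFM2 helps to take the ribosome apart at the end. These steps supply the core subunits of the respiratory chain. The HSP70 protein of the mitochondrial matrix, HSPA9, is known for importing and folding nuclear-encoded proteins of this kind. The comparison asks whether the messenger RNAs of these factors differ when HSP70 is inhibited, a question that follows from the study's title, which names mitochondrial protein homeostasis.

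Of the 10 genes, 3 fell and 1 rose after JG342. TFAM, TFB2M and TUFM had means 29.2%, 27.6% and 19.4% lower than with DMSO, and MTIF3 had a mean 33.3% higher. The other 6 did not pass the test, with GFM1 just outside it. All 10 passed the filter on low values (a mean of 1 TPM or more, where TPM is a length-corrected share of the library), as did 12042 of the genes in the table. Among those 12042 genes, 18.4% passed in either direction, 7.62% as lower and 10.8% as higher. So 4 called of 10 stand beside a background of 18.4%, which includes many genes of lower level. With the filter raised to a mean of 5 TPM, 5 of the 10 passed, 4 as lower and 1 as higher. The shares of the 9814 genes then fitted were 23.0%, 10.1% and 12.9%. The median difference was -0.16 over the 10 genes and 0.03 over all fitted genes, on the log2(TPM + 1) scale used for every difference below. Passing means a Benjamini-Hochberg adjusted p under 0.05 over all fitted genes in limma, a linear model that shares variance information between genes. At an unadjusted limma p under 0.05, 5 of the 10 genes stood beside 4044 of the 12042 fitted genes. The same count over all genes is not given for the fits with a library left out. After scaling the libraries to equal medians, the 1304 higher and 917 lower genes became 966 higher and 1200 lower, or 8.02% and 9.97% of fitted genes (18.0% in all). Under that scaling the same number of the 10 genes passed, 4, but all of them as lower, with GFM1 (adjusted p 0.0292) in and MTIF3 (adjusted p 0.0610) out. Of the 10 genes, 0 passed without DMSO replicate 2 and 0 without JG342 replicate 2 (2 and 4 at an unadjusted limma p under 0.05), 1 passed without DMSO replicate 1 and 3 without JG342 replicate 1. The shares of all fitted genes called were 6.40%, 15.9%, 8.78% and 13.5% in the same order.

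The libraries carried plasma cell transcripts, as a myeloma line should. All 8 plasma cell markers listed (SDC1, TNFRSF17, IRF4, PRDM1, XBP1, MZB1, POU2AF1 and CD38) were above 1 TPM in every library, with summed levels of 4110 and 4730 TPM in DMSO and of 4367 and 4645 TPM in JG342. Of 12 markers of other cell types, 11 were found by symbol, 6 of these were below 1 TPM in every library and none was at 0 in all 4. Their sums were 58.1 to 67.1 TPM in DMSO and 60.2 to 68.0 TPM in JG342, most of it from LYZ. Both sums overlapped between the treatments. Within the plasma cell list, IRF4 and PRDM1 rose by 0.77 and 0.36 and TNFRSF17 fell by 0.44 on the log2 scale (limma adjusted p 0.000986, 0.0410 and 0.0472), while the other 5 did not pass. Their part in the values of the 10 genes was not tested. TPM keeps no read depth, but the spacing of low values gave roughly 9070000 to 10100000 reads per library, with no separation of the treatments. Each library pools the RNA of many cells, so fewer cells with a transcript and less of it per cell cannot be told apart. TPM is also a share of each library, so a fall of a gene cannot be told apart from a rise of other transcripts.

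The promoters of the genes that moved, and of GFM1 next to the threshold, are shown first, because NRF1 and the ETS factor GABP, whose core motifs were searched in them, are known activators of nuclear genes for mitochondrial transcription. Each run is the 250 bases before the RefSeq start on GRCh38.p14, 5′ to 3′ on the gene's strand, with motif matches in capitals. TFAM lies at chr10:58385160-58385409 and GFM1 at chr3:158644277-158644526, both on the plus strand. TFB2M lies at chr1:246566262-246566511, TUFM at chr16:28846349-28846598 and MTIF3, the gene that rose, at chr13:27450565-27450814, all on the minus strand.
TFAM: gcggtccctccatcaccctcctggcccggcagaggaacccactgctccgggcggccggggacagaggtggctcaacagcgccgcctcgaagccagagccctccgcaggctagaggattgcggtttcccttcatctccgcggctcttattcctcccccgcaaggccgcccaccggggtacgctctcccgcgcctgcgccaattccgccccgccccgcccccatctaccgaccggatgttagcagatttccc
TFB2M: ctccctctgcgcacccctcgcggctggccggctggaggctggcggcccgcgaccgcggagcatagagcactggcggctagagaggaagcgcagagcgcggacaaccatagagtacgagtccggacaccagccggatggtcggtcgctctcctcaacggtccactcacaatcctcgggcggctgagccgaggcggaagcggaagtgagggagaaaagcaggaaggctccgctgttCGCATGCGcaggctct
TUFM: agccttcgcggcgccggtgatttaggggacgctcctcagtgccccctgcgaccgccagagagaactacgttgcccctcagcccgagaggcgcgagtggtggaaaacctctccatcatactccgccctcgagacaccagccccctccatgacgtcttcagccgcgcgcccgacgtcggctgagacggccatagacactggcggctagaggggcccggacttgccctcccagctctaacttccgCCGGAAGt
GFM1: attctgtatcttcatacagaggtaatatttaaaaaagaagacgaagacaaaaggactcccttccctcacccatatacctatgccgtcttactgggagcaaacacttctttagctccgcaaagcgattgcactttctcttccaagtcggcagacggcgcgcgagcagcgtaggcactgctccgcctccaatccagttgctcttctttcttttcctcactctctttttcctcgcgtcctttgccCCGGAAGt
MTIF3: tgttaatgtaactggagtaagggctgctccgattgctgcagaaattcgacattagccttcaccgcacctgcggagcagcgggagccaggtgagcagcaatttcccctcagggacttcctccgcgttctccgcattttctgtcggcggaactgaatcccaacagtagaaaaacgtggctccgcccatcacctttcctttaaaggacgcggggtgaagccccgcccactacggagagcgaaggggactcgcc
The NRF1 core was searched as GCATGCG and the ETS core as CCGGAAG, each on both strands. The matches of the 2 patterns did not overlap each other. Only exact matches were marked, so sites that differ from these letters would be missed. TFB2M holds the NRF1 core on both strands in an overlapping pair of matches, the outer of which begins 16 bases before the start. In both TUFM and GFM1 an ETS match begins 8 bases before the start, followed by the same base. TFAM and MTIF3, which moved in opposite directions, hold no exact match to either pattern in this window. Whether they hold variant sites was not tested. Among the genes that did not pass, POLRMT has the NRF1 core 131 and 23 bases before the start and an ETS match, MTIF2 has 2 ETS matches and GFM2 has 1, whereas LRPPRC and TSFM have none. So 5 of the 10 promoters hold the ETS pattern and 2 the NRF1 pattern. Among all 35116 promoters of this length in the RefSeq table the shares were 8.52% and 3.39%, and among those of fitted genes 14.5% and 5.14%. Matches and missing matches occurred both among the genes that passed and among those that did not.

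Among the transcription factors, TFAM and TFB2M fell and the polymerase itself did not pass. Whether POLRMT differed from TFAM and TFB2M in its response was not tested. TFAM (NM_001270782), which also packs the mitochondrial genome into nucleoids, was at 35.5 and 36.0 TPM in the DMSO libraries and at 26.3 and 24.4 TPM in the JG342 libraries. The treatments did not overlap, and the gap was far wider than the distance between duplicates. The difference was -0.48 ± 0.11 (SE, limma adjusted p 0.0202), the largest in size of the 10. Only 6.36% of fitted genes had a lower value. Without the filter on low values the adjusted p was 0.0573, and it was 0.0930, 0.118 and 0.0666 without DMSO replicate 1, DMSO replicate 2 and JG342 replicate 2.

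TFB2M (NM_022366), the factor that opens the promoter, was at 50.3 and 59.6 TPM with DMSO and at 41.7 and 37.9 TPM with JG342. The lowest control library stayed above the highest treated one, although the controls differed from each other by 0.24 on the log2 scale. The difference was -0.45 ± 0.12 (SE, limma adjusted p 0.0335), made up of -0.26 between the libraries numbered 1 and -0.64 between those numbered 2. The adjusted p was 0.232 without DMSO replicate 2 and 0.101 without JG342 replicate 2, and 0.0963 and 0.0763 without the filter and without the variance trend.

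POLRMT (NM_005035) was at 69.1 and 74.5 TPM with DMSO and at 60.4 and 72.5 TPM with JG342. Its treated libraries spanned a wider range than the controls and overlapped them. The difference of -0.11 ± 0.12 (SE) did not pass (limma adjusted p 0.536). POLRMT has a processed pseudogene, POLRMTP1, matching 95.6% of its transcript at 97.8% identity, so how its reads were assigned is uncertain.

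LRPPRC (NM_133259), the partner of the small RNA-binding protein SLIRP in stabilising mitochondrial messenger RNAs, was at 96.2 and 103 TPM with DMSO and at 106 and 95.1 TPM with JG342. The treated values enclosed the control values, and the same-numbered differences had opposite signs, 0.13 and -0.12. It was the only member of the 10 for which they did. The fitted difference was 0.01 ± 0.10 (SE, limma adjusted p 0.964), and its sign turned under scaling to equal medians (-0.06). SLIRP, chosen for mention after its values were seen, was at 109 and 126 TPM with DMSO and at 94.5 and 81.8 TPM with JG342. It fell by 0.41 on the log2 scale (SE 0.12, limma adjusted p 0.0405), but did not pass after quantile normalization (0.0520), without the filter (0.113), without the variance trend (0.101) or without DMSO replicate 1 (0.0592), DMSO replicate 2 (0.254) or JG342 replicate 2 (0.148). Whether it differed from LRPPRC in its response was not tested.

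**Figure D1:**
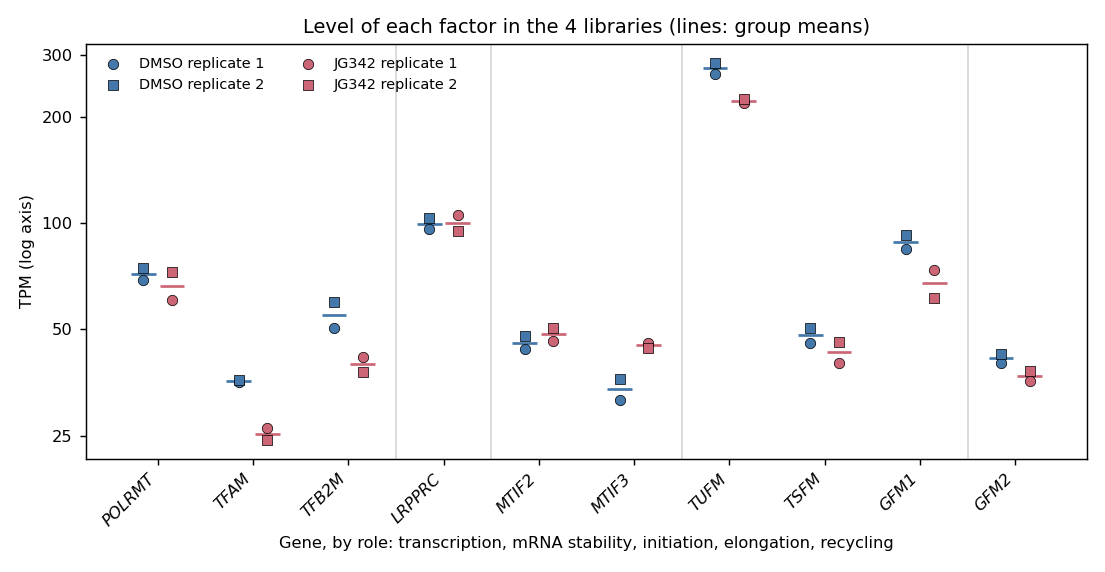
Level of each of the 10 genes in TPM on a log axis, with DMSO libraries in blue, JG342 libraries in red, circles for replicate 1, squares for replicate 2 and short lines for group means; grey lines divide the roles. TFAM, TFB2M, TUFM, GFM1 and GFM2 have both treated values under both control values, and MTIF3 has both above.

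The initiation factors stood on different sides of the test, and whether their responses differed from each other was not tested. MTIF3 (NM_001166261), which keeps the ribosomal subunits apart and helps to place the start codon, was at 31.5 and 36.1 TPM with DMSO and at 45.9 and 44.3 TPM with JG342. Both treated libraries were above both controls, and they lay closer together than the controls did. The difference was 0.41 ± 0.12 (SE, limma adjusted p 0.0408), or 0.53 and 0.29 in the libraries numbered 1 and 2. MTIF3 did not pass when any 1 of the 4 libraries was left out (adjusted p 0.0709 to 0.224), after quantile normalization (0.0544) or scaling to equal medians (0.0610), without the filter (0.0911) or without the variance trend (0.0800), while its sign held in all of these. Its exons share 11.3% of their bases with GTF3A on the opposite strand, and the counting is not stated to use strand. GTF3A was at 156.2 and 173.6 TPM with DMSO and at 136 and 152 TPM with JG342, a difference of -0.20 that did not pass (limma adjusted p 0.218).

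MTIF2 (NM_001005369), which brings the formylated initiator tRNA to the small subunit, was at 43.9 and 47.8 TPM with DMSO and at 46.5 and 50.5 TPM with JG342. The treatments overlapped. Each treated library was slightly above the control of its number, by 0.08 in both cases. The fitted difference of 0.08 ± 0.11 (SE) did not pass (limma adjusted p 0.661).

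Of the elongation factors, TUFM fell, GFM1 had the same direction just outside the threshold, and TSFM did not pass. Differences in response between these factors were not tested. TUFM (NM_003321), the counterpart of bacterial EF-Tu that carries aminoacyl-tRNA to the ribosome, was at 266 and 285 TPM with DMSO and at 219 and 225 TPM with JG342. The treated libraries lay below both controls and close to each other. The difference was -0.31 ± 0.09 (SE, limma adjusted p 0.0464), with nearly equal values of -0.28 and -0.34 in the libraries numbered 1 and 2. The call was lost when any 1 of the 4 libraries was left out (adjusted p 0.0864 to 0.265), without the filter (0.0820), without the variance trend (0.126) and after quantile normalization (0.0632).

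GFM1 (NM_001308164), the translocase of elongation, was at 84.5 and 92.5 TPM with DMSO and at 73.7 and 61.5 TPM with JG342. The treatments did not overlap, but the treated libraries differed by 0.26 on the log2 scale. The difference was -0.39 ± 0.12 (SE, limma adjusted p 0.0512), or -0.19 and -0.58 in the libraries numbered 1 and 2. It passed with a filter at a mean of 5 TPM (limma adjusted p 0.0394) and after scaling to equal medians (0.0292). It did not pass without the filter (0.122), without the variance trend (0.114) or after quantile normalization (0.0634). With a library left out the difference ran from -0.52 to -0.26.

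TSFM (NM_001172695), which recharges TUFM with GTP, was at 45.7 and 50.5 TPM with DMSO and at 40.2 and 46.0 TPM with JG342. The ranges overlapped slightly, and each treated library was below the control of its number. The difference was -0.15 ± 0.12 (SE, limma adjusted p 0.390). TSFM shares 18.7% of its exon bases with AC025165.3 on the same strand and 9.79% with AVIL on the opposite strand. AVIL was at 2.38 to 3.94 TPM in the 4 libraries, far under TSFM.

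GFM2 (NM_001281302), which acts with the ribosome recycling factor after a protein is finished, was at 40.2 and 42.7 TPM with DMSO and at 35.6 and 38.1 TPM with JG342. The treatments did not overlap, and the differences between same-numbered libraries were -0.17 and -0.16. The fitted difference of -0.16 ± 0.11 (SE) nevertheless did not pass (limma adjusted p 0.330). GFM2 shares 8.89% of its exon bases with NSA2 on the opposite strand, which did not pass (difference -0.07, limma adjusted p 0.619).

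Non-overlapping values alone were common in these data. They held for 6 of the 10 genes, 5 lower and 1 higher, beside 62.1% of all fitted genes, 28.2% as lower and 34.0% as higher. An exact permutation test of 2 libraries against 2 could not reach 0.05 for any single gene and was not used.

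**Figure D2:**
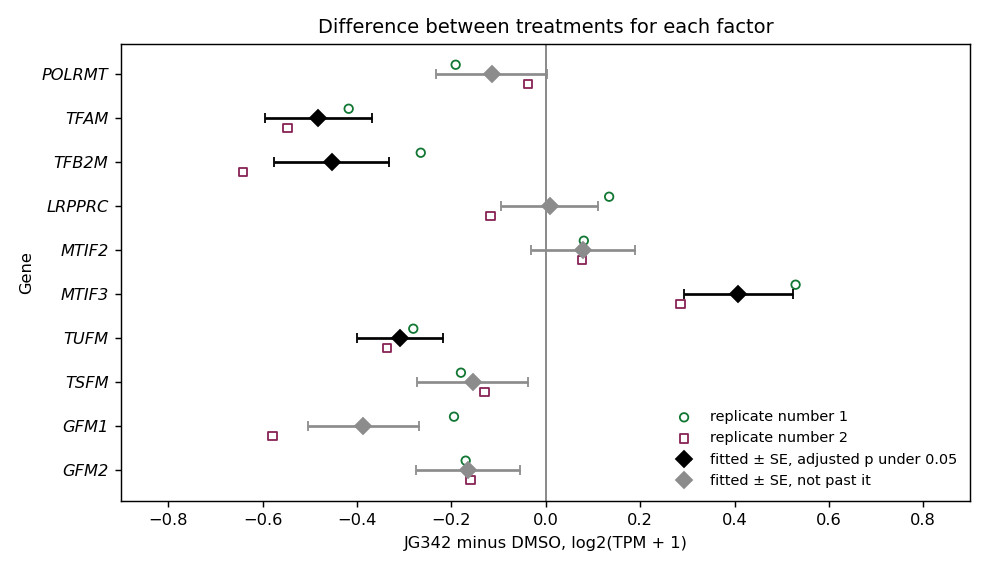
Difference JG342 minus DMSO on the log2(TPM + 1) scale for each gene: diamonds with bars are fitted values ± SE, black where the adjusted p was under 0.05, and open symbols are the differences within replicate numbers 1 (circles) and 2 (squares). TFAM, TFB2M and TUFM lie left of 0 and MTIF3 right of it for both numbers, and LRPPRC has a symbol on each side.

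Since TPM values are divided by length, levels were set side by side across genes. The pseudogene of POLRMT and the exon overlaps of MTIF3, TSFM and GFM2 limit this order. It is also not known whether a value covers a gene or only the listed transcript. With DMSO, TUFM was the most abundant at 275 ± 13.6 TPM (SD, n = 2), followed by LRPPRC at 99.7 ± 4.94, GFM1 at 88.5 ± 5.64 and POLRMT at 71.8 ± 3.82 TPM, and no neighbouring ranges overlapped down to TFB2M. TFB2M, TSFM and MTIF2 followed at 55.0 ± 6.58, 48.1 ± 3.37 and 45.8 ± 2.77 TPM. TFB2M overlapped TSFM and TSFM overlapped MTIF2, but MTIF2 did not overlap GFM2 below it. GFM2 was at 41.4 ± 1.75 TPM, and TFAM and MTIF3 were lowest, at 35.8 ± 0.37 and 33.8 ± 3.29 TPM, with overlapping ranges. With JG342, TUFM and LRPPRC were still the highest, at 222 ± 4.91 and 100.4 ± 7.495 TPM (SD, n = 2), and separate from each other and from the rest. GFM1 and POLRMT overlapped, at 67.6 ± 8.60 and 66.5 ± 8.58 TPM. MTIF3 moved from rank 10 to rank 6, at 45.1 ± 1.14 TPM, and its range now overlapped that of TSFM (43.1 ± 4.11 TPM). MTIF2 was at 48.5 ± 2.83 TPM, TFB2M at 39.8 ± 2.73 TPM and GFM2 at 36.8 ± 1.75 TPM, and from TSFM down to GFM2 each range overlapped the next. TFAM was lowest at 25.3 ± 1.41 TPM, separated from GFM2 above it.

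The other genes of mitochondrial gene expression were read from lists, each described beside the 18.4% called and the median of 0.03 over all fitted genes. Of 15 further genes of transcription and the nucleoid, 2 passed, both of them lower, with a median of -0.18. ATAD3A, a membrane ATPase linked to nucleoids, went from 96.0 ± 2.43 to 64.6 ± 1.01 TPM (SD, n = 2), a difference of -0.56 (limma adjusted p 0.00602). DNA2, a nuclease and helicase of nuclear and mitochondrial DNA, differed by -0.61 (limma adjusted p 0.0271), and did not pass without the filter (0.101) or without DMSO replicate 1 (0.0555), DMSO replicate 2 (0.191) or JG342 replicate 1 (0.0990). The elongation factor of POLRMT, TEFM, named after its values were seen, had a difference of -0.36 that did not pass (limma adjusted p 0.0688).

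Of 34 genes for processing, modifying and degrading mitochondrial RNA, 5 fell and 1 rose, with a median of -0.21. Of their differences 28 were below 0, beside 5596 of the 12042 over all fitted genes. TRMT10C, a subunit of the mitochondrial RNase P that frees tRNAs from the primary transcript, went from 44.3 and 49.2 TPM to 31.4 and 32.2 TPM. Its difference was -0.54 (limma adjusted p 0.0123, and 0.105 without DMSO replicate 2). TRMU, which adds sulfur to mitochondrial tRNAs, differed by -0.61 (limma adjusted p 0.0186), and did not pass without the filter (0.0827) or without DMSO replicate 1 (0.0555), DMSO replicate 2 (0.126) or JG342 replicate 1 (0.0740). The gene that rose was SUPV3L1, the helicase of the mitochondrial RNA degradosome, at 43.6 and 53.1 TPM with DMSO and 62.9 and 64.8 TPM with JG342 (difference 0.40, limma adjusted p 0.0489). SUPV3L1 did not pass when any 1 of the 4 libraries was left out (adjusted p 0.0590 to 0.277), with a pseudocount of 0.1 TPM (0.0514), after scaling to equal medians (0.0859) or quantile normalization (0.0580), without the filter (0.117) or without the variance trend (0.103). The remaining 3 that fell were SLIRP, FASTKD1 and FASTKD5, with FASTKD1 and FASTKD5 (RNA-binding proteins of mitochondria, named after their values were seen) at -0.41 and -0.43. Neither FASTKD1 nor FASTKD5 passed when any 1 of the 4 libraries was left out (adjusted p 0.0671 to 0.176 and 0.0772 to 0.179), without the filter (0.0668 and 0.0704) or without the variance trend (0.0629 and 0.0537).

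None of 16 genes for initiator formylation, release, recycling and translation activation passed in limma. At an unadjusted limma p under 0.05 there were 2 of the 16, beside 4044 of the 12042 fitted genes. Of the differences of these 16 genes, 13 were above 0, beside 6446 of the 12042 over all fitted genes, and their median was 0.05. Scaling to equal medians moved the median over all fitted genes from 0.03 to -0.03. The signs within this list were not counted under that scaling. With the replicate block 3 of the 16 passed, with the block and scaling 1, and without JG342 replicate 2 also 1. Of 20 ribosome assembly factors, NGRN alone passed, as higher (64.4 ± 7.93 to 84.3 ± 4.002 TPM, SD, n = 2; difference 0.39, limma adjusted p 0.0472), and the median was -0.10. NGRN did not pass when any 1 of the 4 libraries was left out (adjusted p 0.0549 to 0.292), after scaling to equal medians (0.118, and 0.0525 with the block in addition) or quantile normalization (0.0748), without the filter (0.113) or without the variance trend (0.107). Of 17 mitochondrial aminoacyl-tRNA synthetases, 2 passed, both of them lower, with a median of -0.12. SARS2, the enzyme for serine, differed by -0.45 (limma adjusted p 0.0434), and did not pass when any 1 of the 4 libraries was left out (0.0698 to 0.269), without the filter (0.0998) or without the variance trend (0.0662). The 83 mitochondrial ribosomal protein genes had a median of -0.15 and 19.3% of them passed, all as lower, beside 7.62% lower among all fitted genes.

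**Figure D3:**
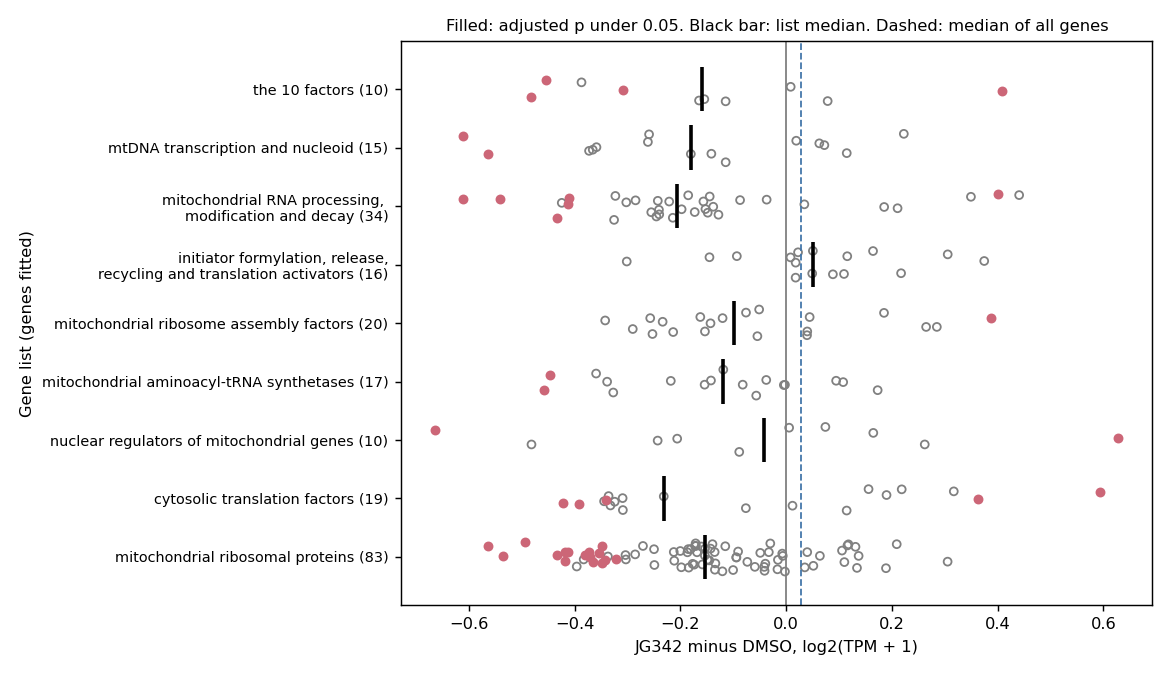
Difference JG342 minus DMSO on the log2(TPM + 1) scale for every fitted gene of each list, with filled points past the adjusted p of 0.05, black bars at list medians and a dashed line at the median of all genes (0.03). The 10 factors have a median of -0.16, and the release and recycling list is the one with a median above that of all genes.

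Of 10 nuclear factors known to activate genes of this kind, 2 passed, or 20% beside 18.4% of all fitted genes. GABPB2, a subunit of GABP, rose by 0.63 (SE 0.15, limma adjusted p 0.0240) and MYC fell by 0.66 (SE 0.09, limma adjusted p 0.00206), from 285 and 291 TPM to 181 and 182 TPM. MYC passed under all 12 alternative settings. GABPB2 did not pass after scaling to equal medians (adjusted p 0.0523) or quantile normalization (0.0586), without the filter (0.1004) or the variance trend (0.0539), or without DMSO replicate 1 (0.143) or JG342 replicate 2 (0.0848). NRF1 and GABPA, the factors whose motifs are marked in the promoters, had differences of -0.09 and -0.21 that did not pass (limma adjusted p 0.688 and 0.242). Any part of these levels in the values of the 10 genes was not tested.

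Cytosolic translation factors served as the nearest counterpart outside mitochondria. Of 20 listed, 19 were fitted, 2 rose and 3 fell, with a median of -0.23. EEF2, which does in the cytosol what GFM1 does in mitochondria, went from 2117 ± 85.5 to 2720 ± 8.63 TPM (SD, n = 2), a difference of 0.36 (limma adjusted p 0.0266). EIF5B, the cytosolic relative of MTIF2, fell by 0.42 on the log2 scale (limma adjusted p 0.0161). EIF2S2 rose by 0.59 and EIF3B fell by 0.39 (limma adjusted p 0.0213 and 0.0190), both being subunits of initiation factors. EEF2 did not pass when any 1 of the 4 libraries was left out (adjusted p 0.0582 to 0.207), after scaling to equal medians (0.0882, and 0.0744 with the block in addition) or quantile normalization (0.104, with a difference of 0.24), without the filter (0.0984) or without the variance trend (0.0848). EIF2S2 did not pass after scaling to equal medians (0.0569), without the filter (0.110) or the variance trend (0.0715), or without DMSO replicate 1 (0.127) or JG342 replicate 2 (0.0583). EIF5B did not pass without the variance trend (0.0607) or without DMSO replicate 1, DMSO replicate 2 or JG342 replicate 1 (0.0644 to 0.116), and EIF3B did not when any 1 library was left out (0.0510 to 0.149), without the filter (0.0555) or without the trend (0.0733). All 5 genes named from the lists as higher (SUPV3L1, NGRN, GABPB2, EIF2S2 and EEF2) thus missed the threshold under scaling to equal medians. Whether a cytosolic factor and its mitochondrial counterpart responded differently was not tested. The list counts varied between settings: for RNA processing genes they ran from 1 to 16 and for mitochondrial ribosomal protein genes from 0 to 31, while the share of all fitted genes called ran from 5.16% to 34.9%.

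The genes whose pattern over the 4 libraries was nearest to that of MTIF3, by Euclidean distance of centred log2 values, were UBE2R2, TOX4 and TGDS, at distances of 0.0146, 0.0221 and 0.0387. For TFAM they were SLC25A1, SECTM1 and FTSJ3, at 0.0212, 0.0264 and 0.0267. The median distance to all other fitted genes was 0.490 for MTIF3 and 0.566 for TFAM.

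**Figure D4:**
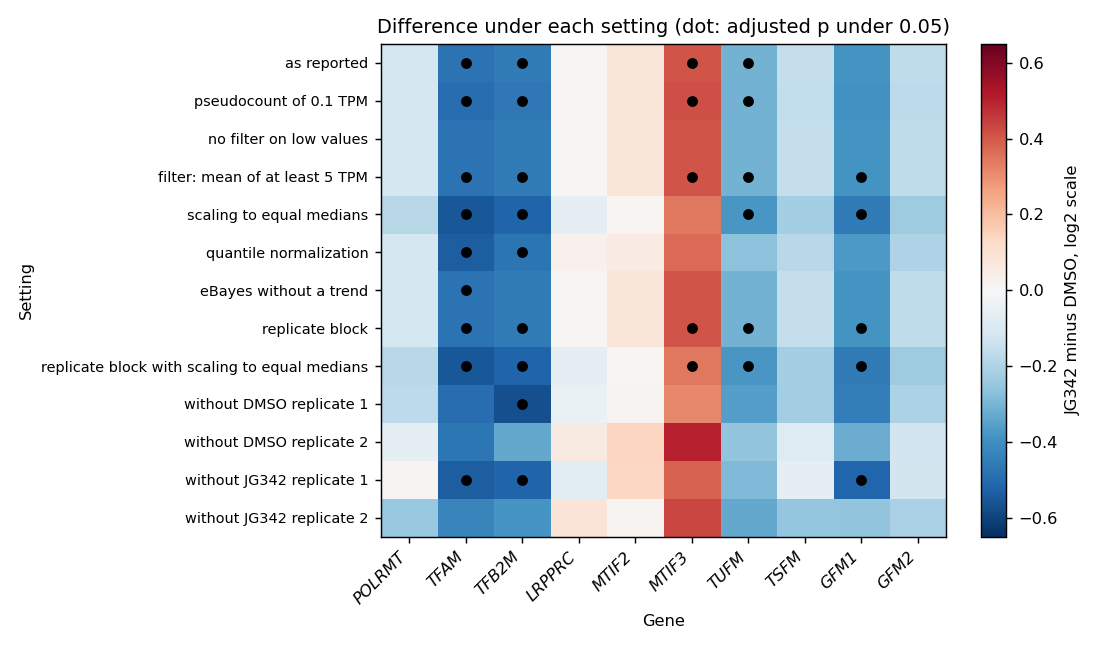
Difference JG342 minus DMSO for each gene (columns) under each setting (rows), coloured from blue (lower) to red (higher), with a dot where the adjusted p was under 0.05. TFAM, TFB2M, TUFM and GFM1 are blue and MTIF3 is red in every row, while the dots come and go. LRPPRC changes sign between rows, and POLRMT does so in the row without JG342 replicate 1.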

How the data were processed

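RNA sequencing libraries of MM.1S cells (2 DMSO, 2 JG342) were prepared and sequenced by a service provider, per the labels' protocols. The file the authors deposited lists each gene once, by symbol and RefSeq accession, beside its level in every library. Its header names no unit; the column sums (994463 to 994718) led to reading the deposited levels as TPM. The submitters' processing notes list HISAT2 2.0.4, Bowtie2 2.2.5 and RSEM 1.2.12. The genome build, annotation and filters, and whether a value covers a gene or only the listed transcript, are not given in the sources used here.

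TPM values are not counts, so log2(TPM + 1) was fitted with limma 3.58.1 in R 4.3.3 (lmFit, trended eBayes) on treatment alone. Genes averaging under 1 TPM, 4015 in number, were left out. Tests were two-sided. The log2(TPM + 1) scale understates changes of low genes. With 2 residual degrees of freedom, standard errors lean on variance shared between genes. The fit was tested on simulated data with known changes, in which spread depended on level alone. That test could not show how the fit handles genes of similar level with unlike spread. No list was given a set test.

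The 10 genes and all lists were chosen with earlier results of these data known. Genes named from the lists were up to 2 per direction with the smallest p past the threshold; exceptions are marked, and some items are not reported here. Transcript lengths, pseudogenes (BLAST 2.17.0, 95% identity or more, covering 20% or more of the transcript) and exon overlaps came from GENCODE release 29. Promoters came from RefSeq by symbol, with all 10 found. Approximate depth was read from the most frequent product of TPM and length among values up to 0.5 TPM in transcripts of at least 1500 nt; it entered no test. By that estimate, and if the listed transcript held all reads, the 10 genes had from 110 reads (TFAM) to 3000 reads (LRPPRC) per library. Alternatives were another pseudocount, 2 other filters, 2 scalings, no variance trend, a replicate block, and leaving out each library.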

Additional observations from a re-analysis of the deposited data

How the results depend on the processing

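TFAM, TFB2M, TUFM and MTIF3 kept their direction under all 12 alternatives, and passed in 8, 8, 5 and 4 of them; GFM1 passed in 5. Of the 10 genes, 0 passed without a filter on low values, 1 without the variance trend and 2 after quantile normalization. The shares of all fitted genes that passed were 5.16%, 12.5% and 16.6% in the same order. In each of these fits 5 of the 10 had an unadjusted limma p under 0.05. The share of all genes at that unadjusted threshold is not given for these fits. It was 4044 of 12042 in the fit reported above, also with 5 of the 10. The number of genes called overall was 828 without the filter, and from 773 to 1905 with a library left out; with 1 library left in a group, its spread is assumed to equal that of the other group. The cause of these changes was not tested, and a left-out library also means fewer samples. LRPPRC turned from 0.00868 to -0.0594 under scaling to equal medians, with or without the block, and ran from -0.0668 to 0.0842 with a library left out. POLRMT was at 0.0158 without JG342 replicate 1 (lowest -0.245). Of the 16 genes named from the lists, those still past the threshold numbered from 3 (without DMSO replicate 1) to 16 (filter at a mean of 5 TPM, and the replicate block). Same-numbered libraries share a prefix in their descriptions that the labels do not explain, and their deviations from the treatment means correlated across genes at 0.27. The replicate number as a block gave 4207 genes, and 3985 with median scaling in addition, and 5 of the 10 genes passed in both fits, beside 34.9% and 33.1% of all fitted genes (TFAM, TFB2M, TUFM, GFM1 and MTIF3). The block fit had 1 residual degree of freedom and, without scaling, an infinite prior.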

Other observations

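Of the control libraries, replicate 2 had the higher value for all 10 genes. Its excess over replicate 1 had a median of 0.11 on the log2 scale, beside 0.04 over all fitted genes. Between the JG342 libraries, replicate 2 minus replicate 1 had a median of -0.00275 over the 10 genes and -0.03 over all fitted genes. TFB2M and GFM1 were the genes for which the order of the duplicates turned most, from 0.24 and 0.13 between the controls to -0.14 and -0.26 between the treated libraries. No explanation was tested.

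The ETS pattern was found in 29.7% of 91 promoters of mitochondrial ribosomal protein genes, and the NRF1 pattern in 7.69%, beside 14.5% and 5.14% for promoters of fitted genes in the same window. Some genes have several promoters in the RefSeq table.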
